A study of Mus musculus with 6 samples.

Results

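Brown and white fat cell genes were followed in RNA from the jugular-nodose ganglia of mice, where the sensory neurons of the vagus nerve have their cell bodies. The 10 genes were taken by symbol from the 32719 genes listed, and all 10 were found, each on a single row. Ucp1 and Cidea were set apart as brown fat genes, and Adipoq, Cfd, Lipe, Plin1, Fabp4, Pparg, Lep and Pnpla2 were treated as general fat genes. Of the 10, 9 passed the filter on low counts and Lep did not. The study holds 6 libraries, 3 titled as treated and 3 titled as control. Per the labels' protocol, wild-type male C57BL/6J mice carried osmotic pumps under the skin for 2 weeks, with the insulin receptor antagonist S961, a peptide, in PBS at 10 nmol per week in the treated group and with PBS alone in the control group. Because S961 stands as the treatment of the control libraries too, the split rests on the titles. The ages of the mice, and whether each library came from 1 animal or from pooled ganglia, are not given in the labels, so p-values measure the spread between these libraries.

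Fat cells store triglyceride in lipid droplets and release it as fatty acids on demand. White fat cells hold a single large droplet and secrete leptin, whereas brown fat cells hold many small droplets and mitochondria rich in UCP1, a carrier that lets protons leak back across the inner membrane so that fuel is burned for heat. Sensory ganglia are not fat tissue, but fat lies along many peripheral nerves, and several genes of lipid handling are also used by neurons and glia.

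Although spinal cord is given as source and tissue for every library, the ganglia are named as the cells. P2rx2, an ATP receptor gene and the most abundant of the nodose neuron markers, had 159.8, 177 and 81.7 counts per 1000000 (CPM) in treated libraries and 208, 206 and 205 CPM in controls. Mog, a myelin gene of oligodendrocytes in the spinal cord that was chosen after its values were seen, had 2, 0 and 0 counts in the treated libraries and 0 in each control. The 8 listed spinal cord genes, Mog among them, summed to 34.7, 32.3 and 34.4 CPM in treated libraries. In controls they summed to 31.1, 30.0 and 34.7 CPM, and Aldh1l1 led the list. Which tissue label is right was not tested. The libraries held 12898607 to 33522486 gene counts, and the labels' protocol gives RNA integrity numbers as a range, 6.6 to 9.1. Treated replicate 3 was the smallest library, with the fewest genes with counts (19402). Its share of reads uniquely overlapping genes was also the lowest, at 46.6% against 52.3% in the highest library. It stood apart, with correlations across genes of 0.920 to 0.944 with the other libraries, against 0.968 to 0.989 among those. The comparison of the groups is therefore also given without it.

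All 10 fat genes were most abundant in treated replicate 3, by unlike amounts. The level there was 1.56 times that in treated replicate 2 for Pnpla2, 2.34 times for Lipe and 10.8 times for Fabp4. In treated replicate 2 the level was above every control for 9 of the 10, by little for Fabp4 and Cidea, while Pparg lay within the control range. In treated replicate 1 all 10 genes lay within or below the range of the controls. In RNA of whole ganglia, more fat cells and more fat RNA per cell cannot be told apart. All 9 tested members had their highest level in treated replicate 3, which was the case for 34.4% of the 16019 genes tested. Treated replicates 2 and 3 were the highest libraries for 8 of the 9, against 11.5% of genes tested, and Pparg was the exception. The groups overlapped for all 10 members, whereas 7.07% of genes tested had all treated libraries above all controls and 7.63% had them below.

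Ucp1 (ENSMUSG00000031710, chromosome 8, 83290352 to 83298452, plus strand, GRCm38) encodes the uncoupling protein that defines heat-producing fat cells. It had 12, 253 and 986 counts in treated replicates 1, 2 and 3, against 40, 2 and 40 in control replicates 1, 2 and 3. With libraries scaled by TMM (a trimmed mean of log ratios), as for all CPM given here, these were 0.357, 8.81 and 78.4 CPM in the treated libraries, against 2.29, 0.0769 and 2.703 CPM in the controls. Treated replicates 2 and 3 lay above every control, and treated replicate 1 lay below control replicates 1 and 3. On the log2 CPM scale the gap between its highest and lowest library was 8.88, and 0 of the 16019 tested genes had a wider one (median gap 0.62). The low end of that gap is a library with 2 counts.

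Cidea (ENSMUSG00000024526, chromosome 18, 67343604 to 67367785) encodes a lipid droplet protein that in mice is abundant in brown fat and scarce in resting white fat. It had 6.31, 10.5 and 52.0 CPM in the treated libraries, against 9.69, 9.42 and 9.73 CPM in the controls. The controls were nearly level, at 9.61 ± 0.166 CPM (SD, n = 3), while control Ucp1 ranged over 1.69 ± 1.41 CPM (SD, n = 3). Treated replicate 3 alone stood well above the controls. In control replicate 2, where Ucp1 had 2 counts, Cidea had 245, so Cidea transcripts were present where Ucp1 was close to undetected.

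The general fat genes fell into those that followed Ucp1 from library to library and those with a steady level in the controls and in treated replicate 1. In the first set, Adipoq (ENSMUSG00000022878, chromosome 16, 23146536 to 23158028) encodes adiponectin, a hormone made almost solely by fat cells. It had 3, 83 and 312 counts in the treated libraries, against 16, 1 and 23 in the controls. These were 0.0893, 2.89 and 24.8 CPM in treated libraries and 0.917, 0.0385 and 1.55 CPM in controls. The order of the 6 libraries by Adipoq level was that by Ucp1 level, from control replicate 2 and treated replicate 1 at the bottom to treated replicates 2 and 3 at the top.

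The windows from 250 bases before to 50 bases after the start of Ucp1 and of Adipoq are shown because these genes moved together across libraries while one marks brown fat and the other all fat cells. Both are RefSeq sequences of build GRCm38.p6 on the plus strand, 5′ to 3′, Ucp1 at chr8:83290098-83290397 and Adipoq at chr16:23146286-23146585. Capitals mark matches on either strand to TATANA (the core promoter box), CCAAT and AGGTCA (the hexamer that nuclear receptors bind), and in Ucp1 overlapping TATANA matches form the first run of capitals.
Ucp1: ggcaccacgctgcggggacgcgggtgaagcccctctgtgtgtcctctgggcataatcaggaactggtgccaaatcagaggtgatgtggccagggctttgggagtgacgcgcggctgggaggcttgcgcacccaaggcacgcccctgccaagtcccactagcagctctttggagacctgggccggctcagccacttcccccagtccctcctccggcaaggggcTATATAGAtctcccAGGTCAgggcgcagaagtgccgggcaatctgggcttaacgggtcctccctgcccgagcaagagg
Adipoq: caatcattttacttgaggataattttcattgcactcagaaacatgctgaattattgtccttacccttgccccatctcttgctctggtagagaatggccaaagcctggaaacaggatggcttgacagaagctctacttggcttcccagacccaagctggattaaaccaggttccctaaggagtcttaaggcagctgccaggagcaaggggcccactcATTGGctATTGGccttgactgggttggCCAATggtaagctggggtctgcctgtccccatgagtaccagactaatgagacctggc
The Ucp1 window held TATANA and AGGTCA, and the Adipoq window held CCAAT at 3 places and neither of the others. Among all 32851 such windows, 24.7% held TATANA, 37.4% CCAAT and 16.3% AGGTCA, so these matches are common. A perfect direct repeat of AGGTCA with 1 base between, the form of site to which PPAR gamma binds with its partner RXR, was in 0 of the 11 windows found for 8 members and in 0.0396% of all windows.

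Plin1 (ENSMUSG00000030546, chromosome 7, 79720218 to 79732903, minus strand) encodes perilipin 1, the coat protein of fat cell droplets. It had 0.268, 7.66 and 44.7 CPM in the treated libraries, against 2.12, 0.539 and 1.62 CPM in the controls. Cfd (ENSMUSG00000061780, chromosome 10, 79890853 to 79892655) encodes adipsin, the complement factor D protease secreted by fat cells. It had 0.179, 3.59 and 22.5 CPM in treated libraries, against 1.09, 0.115 and 0.541 CPM in controls. For both genes treated replicate 1 and control replicate 2 were the lowest libraries.

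Fabp4 (ENSMUSG00000062515, chromosome 3, 10204088 to 10208576, minus strand) encodes a fatty acid binding protein of fat cells that endothelial cells and macrophages also make. It had 25, 661 and 3138 counts in the treated libraries, against 378, 24 and 98 in the controls. The values were 0.744, 23.0 and 249.6 CPM in treated libraries and 21.7, 0.923 and 6.62 CPM in controls. Control replicate 1 came close to treated replicate 2 for this gene, which it did not for Ucp1 or Adipoq. Lep (ENSMUSG00000059201, chromosome 6, 29060220 to 29073877), the leptin gene of white fat, had 3, 8 and 21 counts in treated libraries, against 0, 3 and 1 in controls. The 0 allows up to 0.172 CPM (3 counts in that library, counting error only), and Lep was too low for a test.

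Lipe, Pparg and Pnpla2 were detected in every library at a level that did not follow Ucp1 down. Lipe (ENSMUSG00000003123, chromosome 7, 25379527 to 25398710, minus strand) encodes hormone-sensitive lipase, which cleaves diglyceride. It had 6.55, 17.1 and 39.9 CPM in the treated libraries, against 9.06, 7.15 and 8.11 CPM in the controls. Pnpla2 (ENSMUSG00000025509, chromosome 7, 141455198 to 141460743) encodes adipose triglyceride lipase, the enzyme of the preceding step, which most tissues use. Its values were 39.8, 59.3 and 92.7 CPM in treated libraries and 48.0, 44.4 and 43.7 CPM in controls. Pparg (ENSMUSG00000000440, chromosome 6, 115360951 to 115490399) encodes PPAR gamma, the nuclear receptor that drives fat cell differentiation. It had 2.71, 3.00 and 15.6 CPM in treated libraries, against 2.81, 2.08 and 3.11 CPM in controls, so that treated replicate 3 alone left the range of the others by more than their spread. The Lipe row overlaps 918 exonic bases of an antisense gene that the files do not list, and the strand setting of the counting is not given in the sources used here.

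**Figure D1:**
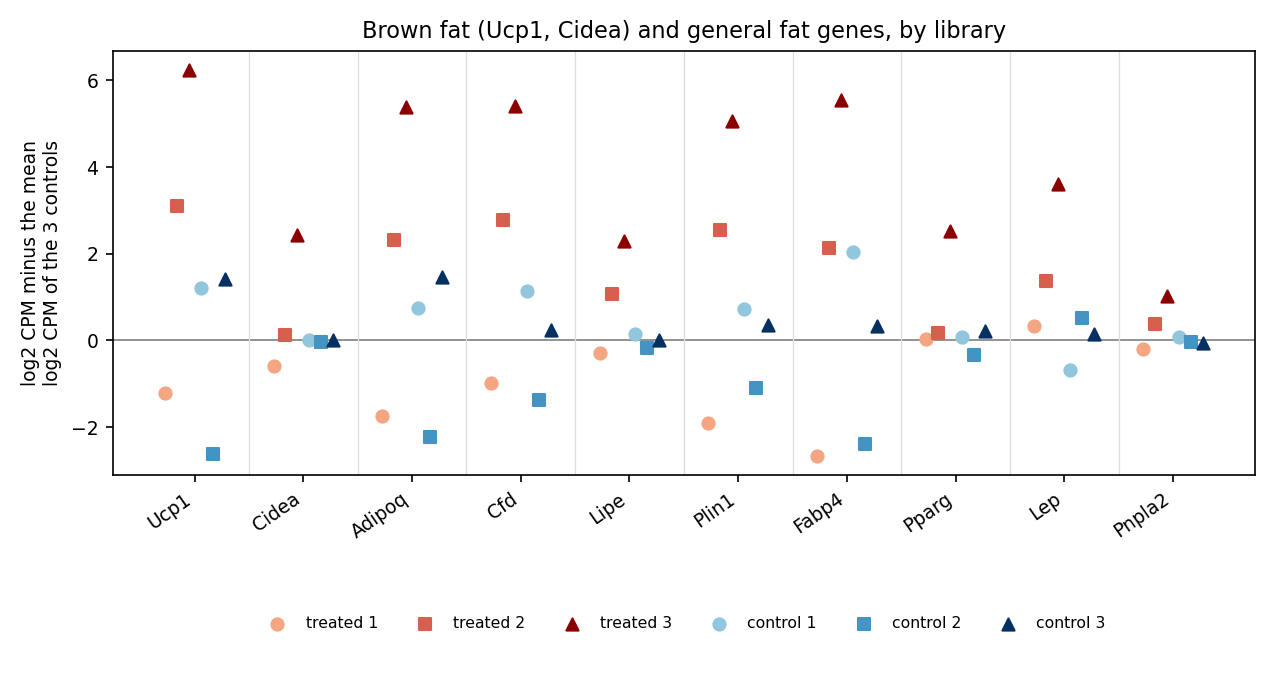
Level of each of the 10 fat genes in each library as log2 CPM (prior count 2) minus the mean log2 CPM of the 3 controls, with warm colours for treated and blue for control libraries. Treated replicate 3 is the highest point for every gene, at 6.24 for Ucp1 and 1.03 for Pnpla2, and treated replicate 1 lies at -1.21 for Ucp1 and -2.66 for Fabp4.

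Levels can be set beside each other between genes only per length, here as CPM per kilobase of exons of protein-coding transcripts. In treated replicate 3 Fabp4 led with 278.6 CPM per kilobase, followed by Ucp1 with 47.9, Cidea with 46.7, Pnpla2 with 34.5, Cfd with 24.4 and Adipoq with 18.0. Plin1 at 9.62, Lipe at 6.95, Pparg at 6.09 and Lep at 0.498 CPM per kilobase were lower there. In treated replicate 1 the order was another, with Pnpla2 at 14.8, Cidea at 5.66 and Lipe at 1.14 CPM per kilobase above Fabp4 at 0.830, Ucp1 at 0.218 and Adipoq at 0.0646. The summed level of the brown fat pair was 6.67, 19.3 and 130.5 CPM in treated libraries and 12.0, 9.50 and 12.4 CPM in controls. That of the 8 general fat genes was 50.4, 117 and 492 CPM in treated libraries and 85.6, 55.3 and 65.3 CPM in controls.

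Shares of counts within a library do not depend on scaling. Ucp1 made up 80.0% (95% exact binomial interval 51.9% to 95.7%), 75.3% (70.3% to 79.8%) and 76.0% (73.5% to 78.3%) of the summed Ucp1 and Adipoq counts in treated replicates 1, 2 and 3. In control replicates 1, 2 and 3 it made up 71.4% (57.8% to 82.7%), 66.7% (9.43% to 99.2%) and 63.5% (50.4% to 75.3%). The totals behind these shares were 3 to 1298 counts. All 3 treated shares were above all 3 control shares, although the intervals of all 6 libraries overlapped. That order rests in part on totals of 15 counts in treated replicate 1 and 3 in control replicate 2, and it was not tested. Intervals cover counting error only, and a difference of the size of the interval in control replicate 2 was not detectable at this depth.

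Ucp1 against Cidea gave another picture. Ucp1 made up 5.36% (2.80% to 9.17%), 45.7% (41.5% to 49.9%) and 60.1% (57.7% to 62.5%) of the summed Ucp1 and Cidea counts in treated replicates 1, 2 and 3. In control replicates 1, 2 and 3 the shares were 19.1% (14.0% to 25.1%), 0.810% (0.0982% to 2.89%) and 21.7% (16.0% to 28.4%). The 2 brown fat genes therefore did not keep a fixed proportion. The 2 lipases also parted: there were 6.08, 3.47 and 2.32 Pnpla2 counts per Lipe count in treated libraries, against 5.30, 6.20 and 5.38 in controls. Fabp4 had 8.33, 7.96 and 10.1 counts per Adipoq count in treated libraries, against 23.6, 24.0 and 4.26 in controls.

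**Figure D2:**
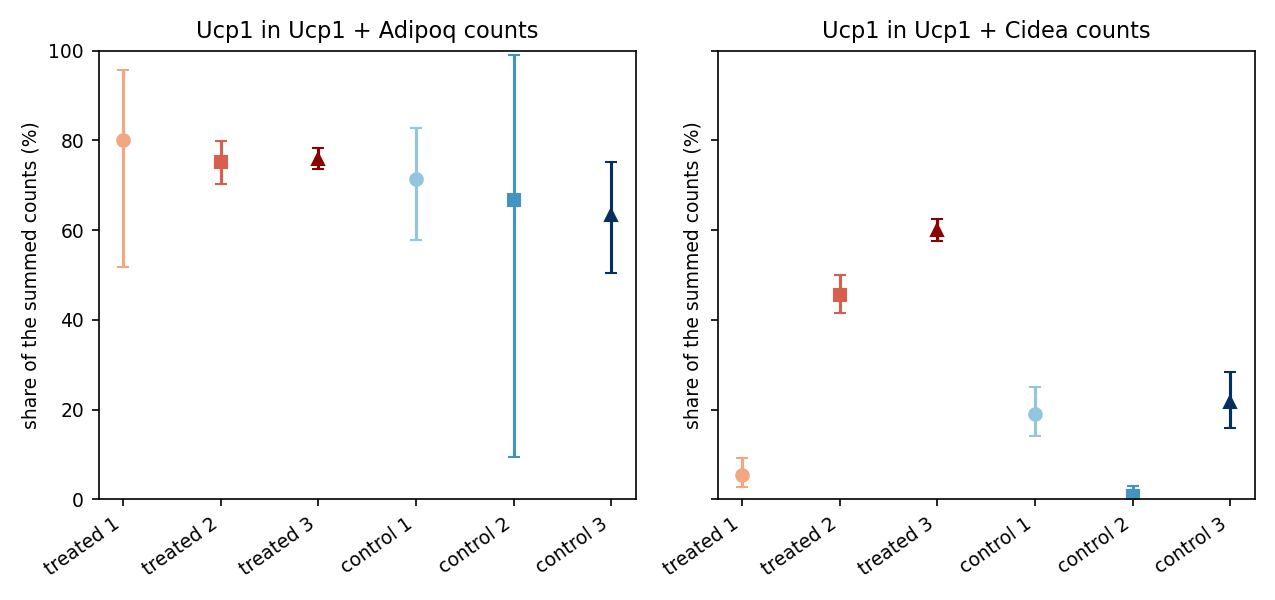
Share of Ucp1 in the summed counts of Ucp1 and Adipoq (left) and of Ucp1 and Cidea (right) in each library, in percent, with 95% exact binomial intervals. The left shares lie between 63.5% and 80.0% with overlapping intervals, while the right shares run from 0.810% in control replicate 2 to 60.1% in treated replicate 3.

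Treated replicates 2 and 3, the libraries rich in fat transcripts, differed from each other by gene. The level in treated replicate 3 was 10.8 times that in treated replicate 2 for Fabp4 (95% counting interval 9.97 to 11.8), 8.90 times for Ucp1 (7.74 to 10.3) and 8.58 times for Adipoq (6.72 to 11.1). The ratio was 6.27 for Cfd, 5.99 for Lep, 5.83 for Plin1, 5.20 for Pparg and 4.96 for Cidea. It was 2.34 for Lipe (2.06 to 2.65) and 1.56 for Pnpla2 (1.45 to 1.69). Cidea, Pparg, Lipe and Pnpla2, whose levels did not follow Ucp1 down, had the smaller ratios. The intervals of Cidea (4.32 to 5.71) and Pparg (4.02 to 6.79) still overlapped that of Plin1 (4.98 to 6.85). These ratios compare 2 libraries, not the conditions.

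Set against PBS, S961 infusion gave no called difference in the 9 tested members. In edgeR's quasi-likelihood test (Benjamini-Hochberg adjustment across the 16019 genes, threshold 0.05), 0 members and 0 genes were called (0% of genes tested). At an unadjusted p under 0.05 there were 0 members and 1068 genes (6.67%). All 9 members had positive log2 fold changes, as did 52.8% of genes tested, at 4.17 for Ucp1 and 1.23 for Cidea and with a median of 3.23 for the 7 tested general fat genes, against 0.02 for all genes tested. DESeq2 called 89 genes (0.556%), edgeR with no low-count filter 26 (0.0941%) and limma-voom with sample weights 8 (0.0499%), and 0 of each were members. Ucp1 averaged 29.2 ± 42.8 CPM in treated and 1.69 ± 1.41 CPM in control ganglia (SD, n = 3 each), with a fitted log2 difference of 4.17 ± 2.03 (SE) and an edgeR adjusted p of 0.742. Adipoq averaged 9.27 ± 13.5 CPM in treated and 0.837 ± 0.761 CPM in control ganglia (SD, n = 3 each), at 3.51 ± 1.98 and an edgeR adjusted p of 0.746. Exact permutation tests of log2 CPM, two-sided, gave p = 0.2 to 0.7 for the 10 genes, where 3 against 3 allows no p under 0.1.

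The size of the differences rested on treated replicate 3. Without it the log2 fold change was 1.49 ± 1.84 (SE) for Ucp1, 0.89 ± 1.72 for Adipoq, 1.50 ± 1.49 for Plin1 and 1.73 ± 1.41 for Cfd. Fabp4 was then at 0.30 ± 1.96 and Lipe at 0.54 ± 0.41. The other 3 were close to 0, Pparg at 0.11 ± 0.31, Pnpla2 at 0.13 ± 0.16 and Cidea, whose sign turned, at -0.20 ± 0.22. Cidea also turned, to -0.03, with sample weights in limma-voom. In the edgeR fit without treated replicate 3, the calls were 9 of 16747 genes (0.0537%), and 0 of them were members. With treated replicate 1 left out instead, the members lay between 0.73 for Pnpla2 and 4.75 for Ucp1, and 7 genes (0.0437%) were called, 0 of them members.

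**Figure D3:**
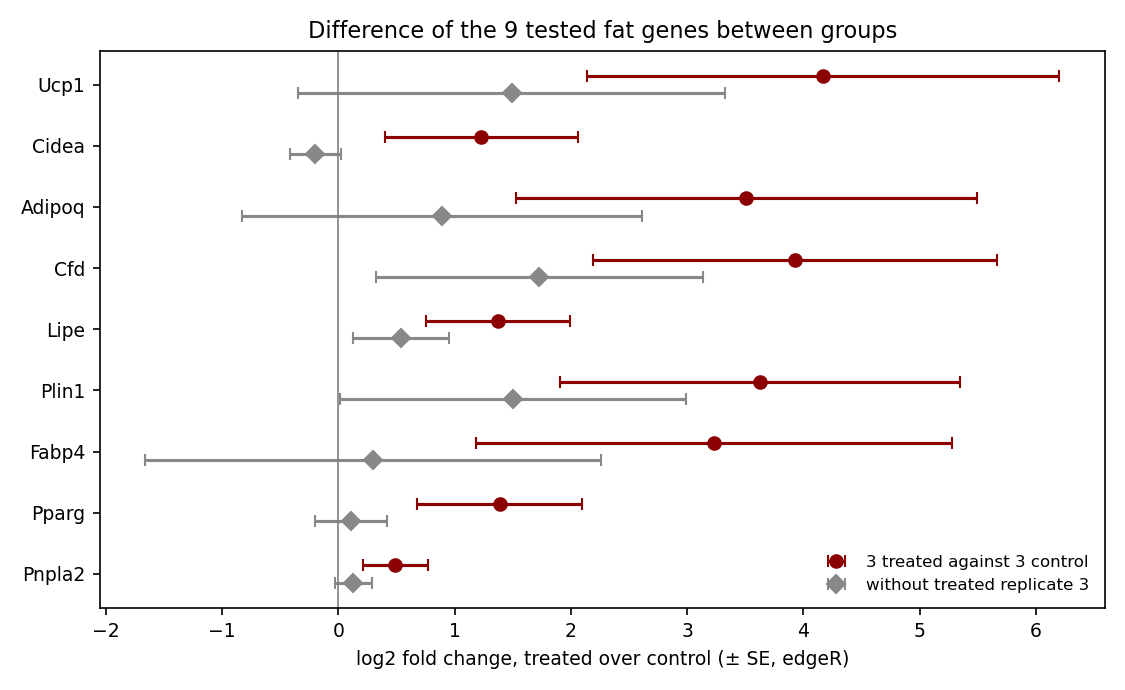
Log2 fold change of treated over control ganglia with its SE for the 9 tested fat genes, with all libraries (red circles) and without treated replicate 3 (grey diamonds). With all libraries the values run from 0.49 for Pnpla2 to 4.17 for Ucp1, and without treated replicate 3 from -0.20 for Cidea to 1.73 for Cfd.

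Other genes of fat cells were read from lists. Of 20 other brown fat genes 17 were tested and 0 called, with 14 positive and 3 negative log2 fold changes and a median of 0.64 (0.05 when treated replicate 3 was dropped). Kcnk3, a potassium channel, averaged 50.6 ± 4.25 CPM in treated and 69.8 ± 11.3 CPM in control ganglia (SD, n = 3 each), at an edgeR adjusted p of 0.655. It was the 1 of 17 tested genes with all treated libraries below all controls (7.63% of all genes tested). Pank1, a coenzyme A synthesis kinase, averaged 26.7 ± 3.62 CPM in treated and 30.0 ± 1.74 CPM in control ganglia. Ppargc1a, a coactivator of mitochondrial genes, was at 29.5 ± 3.17 CPM in treated and 26.8 ± 3.52 CPM in control ganglia, and Prdm16, a determinant of brown fat identity, at 30.1 ± 7.16 CPM in treated and 25.8 ± 10.7 CPM in control ganglia. These 4 genes are thus detected in ganglia whatever the level of Ucp1.

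Of the 17 tested genes of this list, 11 were highest in treated replicate 3, Ppargc1a among them (34.4% of all genes tested), and for 6 treated replicates 2 and 3 were the highest libraries (11.5%). In the list, 4 genes named after their values were seen were, like Ucp1, highest in treated replicate 3. Cox8b, a cytochrome oxidase subunit of muscle and brown fat, had 0, 36 and 319 counts in the treated libraries, against 14, 2 and 8 in the controls. Dio2, the enzyme that activates thyroid hormone in brown fat, had 20, 36 and 162 counts in treated libraries and 29, 14 and 15 in controls. Cpt1b, which admits fatty acids to the mitochondrion in muscle and brown fat, had 42, 159 and 294 counts in treated libraries and 49, 59 and 41 in controls. Elovl3, a fatty acid elongase of brown fat, had only 1, 3 and 9 counts in treated libraries and 0, 1 and 0 in controls. Elovl3 was too low for a test, and Dio2 in treated replicate 2 lay below control replicate 1 per library size.

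Of 11 genes listed for white fat, 2 passed the filter on low counts and were tested and 0 called, with a median of -0.01. Mest, an imprinted gene linked to fat expansion, averaged 35.3 ± 3.85 CPM in treated and 38.3 ± 5.39 CPM in control ganglia (SD, n = 3 each), and Agt, the angiotensinogen gene, 2.78 ± 1.19 CPM in treated and 2.65 ± 0.0952 CPM in control ganglia. Nnmt, a nicotinamide methyltransferase, had 27, 10 and 16 counts in treated libraries and 2, 3 and 6 in controls. Wfdc21 had 25, 5 and 13 counts in treated libraries and 1, 0 and 0 in controls. Nnmt and Wfdc21 had their highest CPM in treated replicate 3, and Mest and Agt their lowest.

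Among 27 genes of lipid storage and lipolysis, all tested, 0 were called, 25 had positive and 2 negative log2 fold changes, and the median was 0.49 (0.13 when treated replicate 3 was dropped). Fatty acid synthesis genes led this list in abundance. Scd1, the stearoyl-CoA desaturase, averaged 1089.5 ± 418 CPM in treated and 777 ± 43.2 CPM in control ganglia (SD, n = 3 each), Fasn, the fatty acid synthase, 706 ± 68.2 CPM in treated and 552 ± 61.4 CPM in control ganglia. Acly, which makes cytosolic acetyl-CoA, averaged 618 ± 134 CPM in treated and 599.7 ± 37.5 CPM in control ganglia, and Acaca, the acetyl-CoA carboxylase, 158 ± 1.24 CPM in treated and 151 ± 3.41 CPM in control ganglia. Treated replicate 3 was highest for 20 of the 27 (34.4% of all genes tested), and treated replicates 2 and 3 were the highest libraries for 11 (11.5%). One of them, named after its values were seen, was Lpl, the lipoprotein lipase, with 3.72, 17.0 and 110.4 CPM in treated libraries and 8.08, 1.96 and 7.57 CPM in controls. In 5 of the 27, every treated library exceeded every control (7.07% of all genes tested), and in 1 (Mgll, named for this after its values were seen) every treated library was below (7.63%). Among the 5 were Scd1 and Fasn, whose edgeR adjusted p were 0.742 and 0.696.

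Fat cell transcription factors and identity genes gave a median of 0.50 over 11 tested of 12, with 0 called, and 0.12 without treated replicate 3. Of these 11, 7 were highest in treated replicate 3 and 3 had treated replicates 2 and 3 as the highest libraries. Trarg1, a regulator of glucose transporter traffic, averaged 360.0 ± 43.0 CPM in treated and 356 ± 17.5 CPM in control ganglia (SD, n = 3 each), and Ebf1, a transcription factor, 223 ± 35.4 CPM in treated and 247 ± 7.86 CPM in control ganglia. Adipor2, an adiponectin receptor, averaged 77.2 ± 21.6 CPM in treated and 57.1 ± 2.42 CPM in control ganglia, and Cav1, the caveolin of fat cell and endothelial membranes, 47.3 ± 33.5 CPM in treated and 33.2 ± 7.30 CPM in control ganglia. Cebpa, a partner of PPAR gamma in differentiation that was named after its values were seen, had 3.36, 4.15 and 42.6 CPM in treated libraries and 6.19, 2.69 and 4.19 CPM in controls. Like Pparg, it was high in treated replicate 3 alone. Fat progenitor genes had 9 of 10 tested, 0 called and a median of 0.41 (0.05 when treated replicate 3 was dropped), with 8 of the 9 highest in treated replicate 3 and 2 with treated replicates 2 and 3 the highest. Cd55 averaged 161 ± 37.7 CPM in treated and 137 ± 15.3 CPM in control ganglia, Zfp423 79.98 ± 8.07 CPM in treated and 81.5 ± 4.29 CPM in control ganglia. Pdgfra averaged 36.0 ± 26.3 CPM in treated and 26.9 ± 8.83 CPM in control ganglia, and Pdgfrb 38.4 ± 17.5 CPM in treated and 23.7 ± 4.13 CPM in control ganglia.

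Likeness to Ucp1 was measured over the 6 libraries as the root mean square difference of log2 CPM after each gene was centred on its own mean. Adipoq was the closest member, at 0.45, followed by Cfd at 0.79, Fabp4 at 0.80 and Plin1 at 0.91. Lipe at 2.06, Pparg at 2.12, Cidea at 2.15 and Pnpla2 at 2.51 were far. Genes were not scaled to a common spread, so a gene that varied little could not come close to Ucp1. The SD of log2 CPM over the libraries was 3.15 for Ucp1, 1.06 for Cidea, 1.03 for Pparg, 1.00 for Lipe and 0.45 for Pnpla2. By order of the 6 libraries, Lipe and Plin1 were the same. The closest genes outside the members were Ces1d, a carboxylesterase, at 0.74, Cidec, a droplet fusion protein of fat cells, at 0.81, Cox8b at 0.88, Car3, a carbonic anhydrase abundant in fat and muscle, at 0.90 and Ltf, the lactoferrin gene of neutrophil granules, at 1.08. For Adipoq they were Cidec at 0.61, Car3 at 0.62, Cox8b at 0.66, Ltf at 0.82 and Ngp, another neutrophil granule gene, at 0.83. Car3 had 64, 547 and 1273 counts in treated libraries and 73, 35 and 110 in controls. Ngp had 9, 97 and 139 counts in treated libraries and 11, 1 and 58 in controls.

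Markers of several other cell types were also highest in treated replicate 3, and their part in the results was not tested. The 12 macrophage markers, all detected, summed to 68.7, 125 and 508 CPM in treated libraries and 83.2, 52.5 and 130.3 CPM in controls. All 12 were highest in treated replicate 3, and for 3 of them treated replicates 2 and 3 were the highest libraries. The most abundant, Lyz2, had 15.7, 25.8 and 153 CPM in treated libraries and 21.8, 11.4 and 32.5 CPM in controls. The 10 neutrophil markers, none of them at 0 in all libraries, summed to 1.61, 13.6 and 49.2 CPM in treated libraries and 5.56, 1.00 and 12.4 CPM in controls. The most abundant, Ltf, had 0.536, 4.04 and 18.0 CPM in treated libraries and 3.73, 0.154 and 4.26 CPM in controls. Ly6g, the defining surface marker of mouse neutrophils, named after its values were seen, had 1, 0 and 0 counts in treated libraries and 4, 0 and 0 in controls. The 8 fibroblast genes summed to 523, 794 and 2336 CPM in treated libraries and 948, 694 and 1226 CPM in controls, so that treated replicate 2 lay within the control range. They were led by Dcn, the decorin gene, with 138, 203 and 705 CPM in treated libraries and 244, 131 and 343 CPM in controls. The Schwann cell genes summed to 1714, 2549 and 2585 CPM in treated libraries and 1354, 2183 and 1462 CPM in controls, and treated replicates 2 and 3 were the highest libraries for 6 of 9. Endothelial markers summed to 179, 218 and 231 CPM in treated libraries and 199, 207 and 178 CPM in controls. Flt1, the most abundant of them, had 71.6, 85.4 and 56.4 CPM in treated libraries and 63.0, 83.0 and 62.4 CPM in controls.

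Treated replicates 2 and 3 were the highest libraries for 0 of the 10 skeletal muscle genes and 0 of the 6 erythroid genes (11.5% of all genes tested). Treated replicate 3 was highest for 1 of the 10 skeletal muscle genes and 0 of the 6 erythroid genes (34.4%). Skeletal muscle genes summed to 29.0, 9.13 and 39.9 CPM in treated libraries and 19.3, 106 and 175 CPM in controls, with the myosin gene Myh4 the most abundant at 11.4, 1.08 and 6.68 CPM in treated libraries and 5.56, 58.4 and 87.5 CPM in controls. Erythroid genes summed to 10.8, 9.58 and 24.9 CPM in treated libraries and 18.5, 24.3 and 55.2 CPM in controls, with the globin gene Hbb-bs the most abundant at 3.12, 2.58 and 6.12 CPM in treated libraries and 6.13, 7.96 and 21.4 CPM in controls. Nodose neuron markers summed to 569, 617 and 306 CPM in treated libraries and 760.03, 748 and 725 CPM in controls. Every treated library was thus below every control, treated replicate 1 with its low fat transcripts included, and treated replicate 3 was lowest. Pan-neuronal genes summed to 12444, 11709 and 8960 CPM in treated libraries and 12160, 12083 and 11134 CPM in controls, with the neurofilament gene Nefl the most abundant at 3101, 2753 and 2089 CPM in treated libraries and 3024, 3021 and 2796 CPM in controls. The 8 jugular neuron markers were all highest in treated replicate 3 too, summing to 796, 464 and 1023 CPM in treated libraries and 383, 429.6 and 404 CPM in controls, with the peptide gene Calca at 254, 135 and 369.7 CPM in treated libraries and 101, 135 and 156 CPM in controls. Satellite glia, sympathetic and spinal cord lists were led by Apoe, Th and Aldh1l1. Apoe had 1948, 2213 and 2429 CPM in treated libraries and 1639, 2326 and 1779 CPM in controls. Th had 46.2, 45.6 and 27.3 CPM in treated libraries and 57.1, 52.5 and 51.6 CPM in controls, lowest in treated replicate 3. Aldh1l1 was level, at 21.1, 19.3 and 18.9 CPM in treated libraries and 20.4, 17.4 and 20.9 CPM in controls. 

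**Figure D4:**
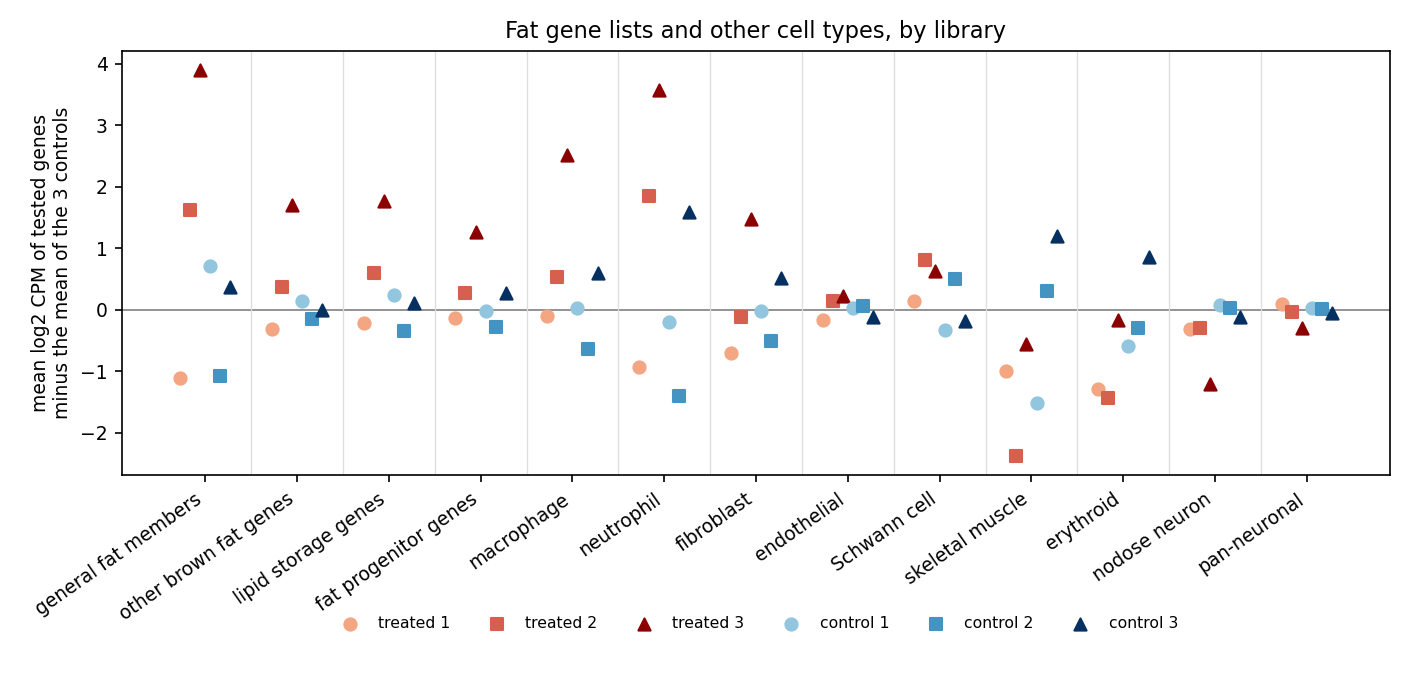
Mean log2 CPM of the tested genes of each list in each library minus the mean of the 3 controls, for fat gene lists and for lists of other cell types. Treated replicate 3 is the highest library for general fat genes (3.90), macrophage (2.52), neutrophil (3.58) and fibroblast (1.48) lists and the lowest for nodose neuron markers (-1.21).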

How the data were processed

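RNA of 6 libraries was sequenced from about 6 ng of total RNA each using a kit for low input that keeps strand, per the labels' protocols. Per the submitters' processing notes, the authors ran STAR 2.7.7a and bcl2fastq 2.20, with edgeR and DESeq2 also named, on build mm10. Which program counted reads, on which annotation and strand setting, is not given in the sources used here. Deposited values are raw exonic counts per gene, 1 file per library. Coordinates and exon lengths came from GENCODE M21 (GRCm38, the same build), which holds 32663 of the 32719 listed genes.

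Genes were kept by filterByExpr (minimum count 10), scaled by TMM and compared by edgeR 4.0.16 under R 4.3.3 (robust quasi-likelihood F test, treated over control, Benjamini-Hochberg over all genes tested, threshold 0.05). The SE is the size of the log2 fold change over the square root of F. Log2 CPM used a prior count of 2. Alternatives used limma 3.58.1 and DESeq2 1.42.0.

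Members and lists were chosen with earlier results of these data known, so list counts and medians are descriptions. Named genes are the members, the 4 most abundant genes of each fat list, the most abundant gene of each cell type list, any list gene past the threshold (0), and the 5 genes most like Ucp1 and Adipoq. Some items are not reported here. Genes outside this rule are said to be named after their values were seen. Promoter sequences are RefSeq's, found for 8 members.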

Additional observations from a re-analysis of the deposited data

How the results depend on the processing

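No fat gene that could be tested was called under the 16 alternatives. Single members were followed only if tested in the main fit, which leaves out Lep. The fit with no low-count filter kept Lep and did not call it. With a filter of at least 5 CPM in 3 libraries Cidea, Lipe, Fabp4 and Pnpla2 remained. Of 139 values of single members under these alternatives, 137 kept their direction and stayed above the threshold, and Cidea turned to -0.03 with sample weights in limma-voom and to -0.20 without treated replicate 3 (-0.20 to 1.67 with each library left out in turn). Adjusted p ran from 0.454 to 0.995 for Ucp1 and from 0.276 to 0.995 for Lipe over the alternatives. Over all genes there were 26 calls with no low-count filter, 89 with the DESeq2 Wald test, 8 with sample weights in limma-voom and, with each library left out in turn, 0 to 9.

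With each library left out in turn the median log2 fold change ran from 0.65 to 3.21 for the brown fat pair, from 0.54 to 3.80 for the general fat genes, from 0.05 to 0.92 for other brown fat genes, from 0.13 to 0.70 for lipid storage genes, from 0.12 to 0.73 for fat cell transcription factors and from 0.05 to 0.75 for progenitor genes, each lowest without treated replicate 3, and from -0.24 to 0.13 for the white fat genes. Sample weights in limma-voom gave 0.64 for the general fat genes and -0.01 for other brown fat genes, plain limma-voom 1.32 for the brown fat pair, 1.12 for the general fat genes and 0.10 for other brown fat genes, and the 5 CPM filter, which tests fewer genes, 1.25, 1.38 and 0.10 for the same lists. For limma-voom the cause was not tested. Summed CPM over the control mean was 11.5 for the brown fat pair in treated replicate 3, which was 11.3 by library size and 9.80 per kilobase, and 1.71 in treated replicate 2, which was 1.53 per kilobase. For the general fat genes in treated replicate 3 it was 7.15, and 11.9 per kilobase, where the short Fabp4 weighs more.

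Deviations of same-numbered libraries from their group means correlated at 0.0142, 0.564 and 0.488, and 2 of 3 treated libraries correlated best with the control of their own number. Whether same-numbered libraries share anything was not tested. With replicate 1 at 0.0142 the numbers were not taken to pair the libraries. The replicate block gave 1 call over all genes and 0 among the fat genes, with Ucp1 at 3.10 and the median of other brown fat genes at 0.27. Depth limits Adipoq, Ucp1, Cfd and Lep in control replicate 2, at 1 to 3 counts. It also limits Adipoq and Lep in treated replicate 1, at 3 counts each, and Lep in control replicates 1 and 3, at 0 and 1 counts.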

Other observations

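In the other brown fat list, 1 of 17 tested genes, Otop1, had all treated libraries above all controls (7.07% of all genes tested). It is a proton channel gene expressed in brown fat and was picked after its values were seen. It had 55, 60 and 73 counts in treated libraries and 7, 33 and 14 in controls, or 1.82 ± 0.64 (SE) in log2 fold change, with an edgeR adjusted p of 0.699. Unlike Ucp1 it was not low in treated replicate 1. Pck1, which makes the glycerol backbone of triglyceride in fat, was likewise higher in all treated libraries than in all controls, with 493, 322 and 1204 counts in treated libraries and 186, 23 and 66 in controls, at 2.93 ± 1.28 and an edgeR adjusted p of 0.737. Slc27a2, a fatty acid transporter, had 120, 32 and 171 counts in treated libraries and 47, 9 and 18 in controls, so that, per library size, treated replicate 2 was below control replicates 1 and 3, which it exceeded for Ucp1. Pck1 and Slc27a2 were also picked after their values were seen.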
